A study of Mus musculus with 6 samples.

Results

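The expression of 10 members of the S100 family was followed in RNA sequencing of mouse cultures described as primary fibroblasts: S100a1, S100a3, S100a4, S100a6, S100a8, S100a9, S100a10, S100a11, S100a13 and S100a16. They were taken by name, and all 10 were found among the 51912 genes of the table. Macrophage markers were plentiful in these libraries, so the S100 levels cannot be assigned to fibroblasts alone. A group of cultures received the chemokine CXCL3 and the other was the control, for 48 h and with 3 libraries each. CXCL3 is a secreted ligand of the receptor CXCR2, whose gene Cxcr2 was at only 0.02 to 0.12 TPM in these libraries. The mice were 6 weeks old in both groups, and neither strain, organ of origin, dose of CXCL3 nor vehicle is given in the labels. The labels do not say that replicates were separate animals or cultures, so p-values measure the spread between these libraries, which may be technical. The series title places the cultures in work on CXCL3, myofibroblasts and pancreatic cancer metastasis.

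S100 proteins are small calcium sensors with a pair of EF-hand loops. Most form dimers that open on binding calcium and then grip a target, often an annexin, a cytoskeletal protein or an enzyme, and several are also released from cells and act on the receptors RAGE and TLR4. In fibroblasts S100a4, also called fibroblast-specific protein 1, has been used as a marker, although macrophages express it too. S100a8 and S100a9 are best known as the subunits of calprotectin, an abundant heterodimer of neutrophils and monocytes.

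All 10 genes lie on chromosome 3 (GRCm38, GENCODE M21), in a pair of clusters, and 2 of them, S100a1 and S100a9, are on the minus strand. The first cluster holds 8 of these 10 genes, from 90511034 to 90695721, a span of 184.7 kb. S100a4 (ENSMUSG00000001020) occupies 90603771 to 90606045, S100a8 (ENSMUSG00000056054) 90668978 to 90670035 and S100a9 (ENSMUSG00000056071) 90692632 to 90695721. The second cluster, from 93520488 to 93564643, holds S100a11 (ENSMUSG00000027907, from 93520488 to 93526287) and S100a10. The remaining positions are those of S100a1 (ENSMUSG00000044080, 90511034 to 90514392), S100a13 (ENSMUSG00000042312, 90514435 to 90524581), S100a16 (ENSMUSG00000074457, 90537254 to 90543151), S100a3 (ENSMUSG00000001021, 90560578 to 90602702), S100a6 (ENSMUSG00000001025, 90612882 to 90624181) and S100a10 (ENSMUSG00000041959, 93555080 to 93564643). S100a1 and S100a13 are transcribed away from each other, and only 104 bases lie between their RefSeq start sites. GENCODE puts the S100a1 start closer, 0.043 kb from that of S100a13.

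Start-site sequences are shown for S100a8 and S100a9, neighbours with very different levels, for S100a4 and S100a11, the tested members whose groups did not overlap, and for the stretch that S100a1 and S100a13 share. They come from RefSeq (GRCm38.p6), which had windows for 9 of the 10 genes, read 5′ to 3′ on the gene's own strand, and run from 150 bases before the annotated start to 30 after it. Capitals mark TATAAA in the first 3, and GGGCGG and TGANTCA in S100a11. The positions are chr3:90668921-90669100 (plus strand) for S100a8, chr3:90695692-90695871 (minus strand) for S100a9, chr3:90603620-90603799 (plus strand) for S100a4, chr3:93520346-93520525 (plus strand) for S100a11, and chr3:90514331-90514434 (plus strand) for the shared stretch.
S100a8: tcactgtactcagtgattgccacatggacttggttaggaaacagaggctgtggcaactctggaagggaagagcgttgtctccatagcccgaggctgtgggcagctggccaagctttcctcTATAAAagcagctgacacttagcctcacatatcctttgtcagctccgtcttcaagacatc
S100a9: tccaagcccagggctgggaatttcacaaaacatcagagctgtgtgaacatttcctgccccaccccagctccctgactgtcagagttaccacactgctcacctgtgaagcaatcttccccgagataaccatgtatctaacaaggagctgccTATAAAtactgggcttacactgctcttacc
S100a4: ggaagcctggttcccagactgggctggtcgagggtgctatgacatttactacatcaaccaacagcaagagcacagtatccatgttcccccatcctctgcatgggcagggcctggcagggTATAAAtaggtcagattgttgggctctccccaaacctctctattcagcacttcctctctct
S100a11: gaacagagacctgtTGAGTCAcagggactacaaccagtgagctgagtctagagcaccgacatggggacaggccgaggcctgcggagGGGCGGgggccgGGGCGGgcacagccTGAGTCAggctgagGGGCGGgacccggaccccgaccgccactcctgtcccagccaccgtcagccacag
Between S100a1 and S100a13: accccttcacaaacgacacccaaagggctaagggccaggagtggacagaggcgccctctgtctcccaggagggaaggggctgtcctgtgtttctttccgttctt

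TATAAA, the core of a TATA box, began 31 bases before the start of S100a4, 30 before that of S100a8 and at the annotated start itself in S100a9. With S100a3, which has several windows, 4 of 9 members held it on either strand of a 300-base window, where 13.6% of all 32851 windows did. S100a11 had no TATAAA. It held GGGCGG, the core of an Sp1 site, 64, 52 and 24 bases before its start, and TGAGTCA, a match to the AP-1 motif TGANTCA, 136 and 38 bases before it. GGGCGG was found in 4 of 9 members and 35.7% of all windows, and TGANTCA in 2 of 9 and 7.81%. Of the other motifs searched on both strands, CCAAT was found in 2 members (37.4% of all windows) and TTGCNNAA, a C/EBP motif, in S100a9 alone among the 9 (10.8%). The 104 bases between S100a1 and S100a13 were 58.7% G and C. No searched motif is contained in another, and a match describes the letters only.

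The family was abundant. The 10 genes summed to 5615, 6803 and 6147 TPM (controls 1, 2 and 3) against 6017, 6028 and 6118 TPM (CXCL3 libraries 1, 2 and 3), which is 0.570% to 0.689% of all transcripts by this measure. TPM is a share of all transcripts in a library, corrected for transcript length, so levels of different genes can be set side by side, but it keeps no depth. S100a11, a partner of annexin A1, ranked highest with a mean of 2347 TPM over 6 libraries, the 43rd most abundant of 13139 genes tested. S100a6 (calcyclin) followed at 1848 TPM, S100a4 at 689.9, S100a8 at 578, S100a10 at 291, S100a1 at 258, S100a16 at 57.1 and S100a13 at 51.8 TPM. Together S100a11 and S100a6 thus led the family, with 35.9% to 42.9% and 26.9% to 32.0% of its TPM in a library. Ranges over the 6 libraries overlapped between neighbours in this order for S100a4 and S100a8, S100a10 and S100a1, S100a16 and S100a13, and S100a3 and S100a9, and not for the others. S100a4 was nevertheless above S100a8 in 5 of 6 libraries and S100a10 above S100a1 in 6 of 6.

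**Figure D1:**
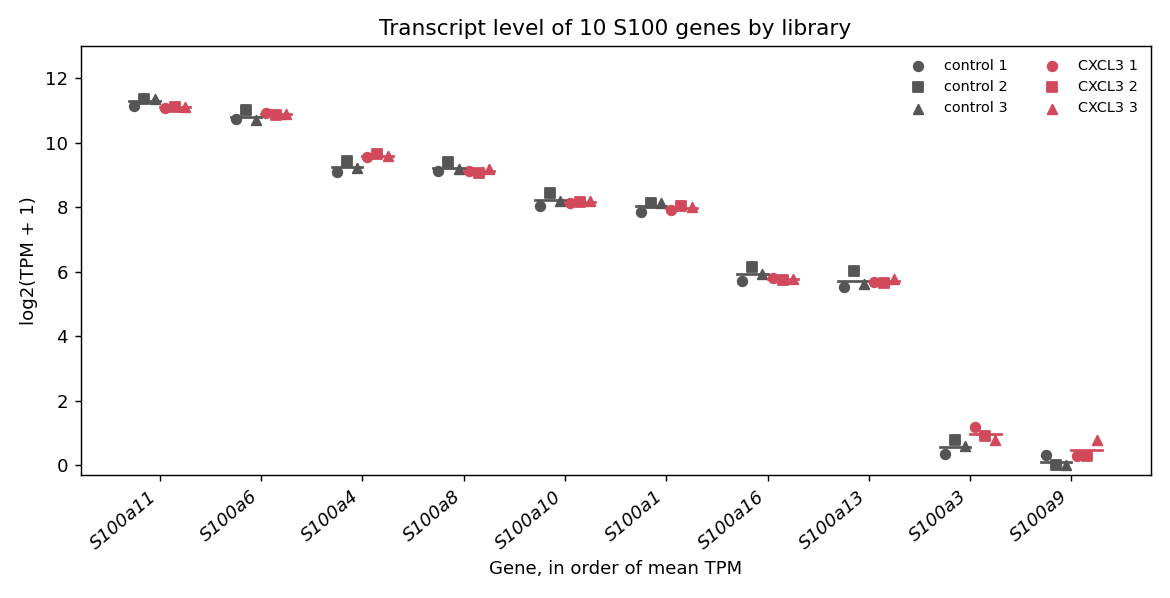
Level of the 10 S100 genes as log2(TPM + 1), each point a library (grey, control; red, CXCL3; shape, replicate number) and each short line a group mean of 3. The first 8 genes lie far above S100a3 and S100a9, whose libraries sit between 0 and 1.28 TPM, and the red points of S100a4 lie above its grey points.

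The other 7 family genes that could be matched to the table were all below 1 TPM in every library. S100a2, S100a5 and S100z were listed at 0 in each library. S100b, a marker of Schwann cells and other glia, reached 0.81 TPM at most, S100g 0.87, S100a7a 0.67 and S100a14, an epithelial member, 0.26. S100a7l2 was not matched. S100a14, S100a2, S100a5 and S100a7a also lie inside the first cluster.

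S100a8 and S100a9 had very different levels, the fourth highest and the lowest of the family. S100a8 stood at 552, 669 and 581 TPM (controls 1, 2 and 3) against 556, 529 and 582 TPM (CXCL3 libraries 1, 2 and 3). S100a9, its calprotectin partner, was listed at 0.25, 0 and 0 TPM in the controls and at 0.23, 0.23 and 0.71 TPM with CXCL3, so that no library reached 1 TPM. The annotated genes lie 22.6 kb apart. No 31-base stretch of either gene's longest transcript occurred in a transcript of another gene. None of 12 widely expressed genes checked (Actb, Gapdh, Polr2a and others) was listed at 0 in a library, their lowest value being 17.0 TPM.

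The markers of neutrophils, the cells with most calprotectin, were mostly at or near 0. Of 11 markers 6 stayed under 1 TPM in every library, among them Ngp and Retnlg, which were listed at 0 throughout, and Ly6g, at 0.08 TPM at most. Without the matrix metalloproteinase genes Mmp8 (mean 93.6 TPM) and Mmp9 (212 TPM), the list summed to 6.42 to 7.62 TPM in controls and 6.69 to 9.07 TPM with CXCL3. Macrophage markers were plentiful. The 13 genes summed to 15505 to 18497 TPM in controls and 15131 to 15220 TPM with CXCL3, most of it from the lysozyme gene Lyz2, and Adgre1, which encodes F4/80, lay between 363 and 507 TPM. Of these 13 markers 2 passed, both lower with CXCL3 (C1qa and Ms4a7, limma, adjusted p = 0.0493 each), where 0.129% of all genes passed as lower. The 13 did not move as a group, with 5 positive and 8 negative fold changes. The groups did not overlap for 1 higher and 5 lower markers, where 7.92% and 9.31% of all genes did so. The higher one was Mrc1, from 11.5 to 17.0 TPM on average (log2 fold change 0.53, limma, adjusted p = 0.248). The 10 fibroblast markers summed to 5009 to 7183 TPM in controls and 5627 to 5986 TPM with CXCL3. Fn1 (mean 2477 TPM) and Vim (1626 TPM) were the highest of them. Col1a1, Col1a2, Col3a1 and Dcn had means of 662, 506, 302 and 300 TPM. Pdgfrb, Thy1 and Pdgfra had means of only 22.0, 20.7 and 12.9 TPM, and Lum was at most 0.50 TPM. Of the 10, Col3a1 passed, lower with CXCL3 (limma, adjusted p = 0.0293). These 3 calls are lost in the settings where 0 genes passed, which were no filter on low values, without control 3, and without CXCL3 library 1 or 2. They are also lost without CXCL3 library 3, where the 1 gene that passed was higher. With eBayes without trend only 1 gene passed, and likewise with length and GC trend removal plus the replicate block, so most of the 3 calls are lost there too. All 7 epithelial markers were at or below 1.10 TPM. The part of these cells in the S100 values was not tested. In such bulk libraries fewer cells of a type and less RNA per cell cannot be told apart.

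No S100 gene passed the test for CXCL3 against control. The test was limma on log2(TPM + 1), with Benjamini-Hochberg adjustment over all 13139 genes with at least 1 TPM in at least 3 libraries and a threshold of 0.05. S100a3 and S100a9 did not reach that level and were not tested. Of the 8 tested, 0 passed, where 0.16% of all genes did (21 genes, 0.0304% higher and 0.129% lower), and 2 had an unadjusted p under 0.05, S100a4 and S100a11, where 11.6% of all genes did. Fold changes were positive for 2 members and negative for 6, with a median of -0.06 on the log2 scale, where the median of all genes tested was 0.07.

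S100a4 binds non-muscle myosin IIA and is linked to cell motility. It stood at 544, 690.2 and 595 TPM (controls 1, 2 and 3) against 751, 798 and 762 TPM (CXCL3 libraries 1, 2 and 3). Every CXCL3 library lay above every control, the nearest being control 2. The group means were 609.6 ± 74.4 and 770.2 ± 24.3 TPM (SD, n = 3 each), a log2 fold change of 0.34 ± 0.09 SE, or 1.27-fold (95% interval 1.09 to 1.47), with a limma p of 0.00652 and an adjusted p of 0.266. It ranked 322nd by p among all genes. Of all genes tested, 7.92% had CXCL3 libraries wholly above the controls, and among the 8 tested members S100a4 alone did.

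S100a11 had a fold change of the opposite sign. It stood at 2244, 2628 and 2639.7 TPM (controls 1, 2 and 3) against 2159, 2188 and 2222 TPM (CXCL3 libraries 1, 2 and 3). The groups did not overlap, but control 1 lay close to CXCL3 library 3. The means were 2504 ± 225 and 2189.8 ± 31.3 TPM, a log2 fold change of -0.19 ± 0.08 with a limma p of 0.0458 and an adjusted p of 0.426, and with a 95% interval of -0.37 to -0.0046. Of all genes tested, 9.31% lay wholly lower with CXCL3.

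S100a6, which binds the ubiquitin-ligase adaptor CacyBP, stood at 1687, 2054 and 1653 TPM (controls) against 1925, 1868 and 1899 TPM (CXCL3). Control 2 was the highest of all 6 libraries and controls 1 and 3 the lowest, so the groups overlapped. The log2 fold change was 0.08 (95% interval -0.13 to 0.30; limma, adjusted p = 0.653). It was 0.04 without control 1, 0.18 without control 2, 0.03 without control 3 and 0.0056 with median-of-ratios scaling. S100a4 relative to S100a6 was 0.322, 0.336 and 0.360 in controls 1, 2 and 3 and 0.390, 0.427 and 0.401 in CXCL3 libraries 1, 2 and 3, with no overlap. S100a4 likewise made up 9.68% to 10.1% of the family's TPM in controls and 12.5% to 13.2% with CXCL3. These shares describe the same S100a4 values and were not tested.

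S100a8 did not pass (log2 fold change -0.11, 95% interval -0.31 to 0.09; limma, adjusted p = 0.548), and its group means were 600.7 ± 60.6 and 555 ± 26.2 TPM. That interval runs from 0.808-fold to 1.06-fold. The log2 fold change of S100a8 was -0.17 without control 1, -0.03 without control 2 and -0.04 with the length and GC trend removed. S100a9 was below the level tested in both groups.

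S100a10, the light chain that holds annexin A2 in a heterotetramer at the plasma membrane, stood at 259.5, 344 and 290.1 TPM (controls) against 279, 284 and 289 TPM (CXCL3). The CXCL3 values fell inside the range of the controls (log2 fold change -0.06, 95% interval -0.30 to 0.18; limma, adjusted p = 0.783). The gene of its partner, Anxa2, was at 623, 636 and 600.2 TPM (controls) against 747, 751 and 748 TPM (CXCL3). Every CXCL3 library was above every control, with a log2 fold change of 0.27 ± 0.06 that did not pass, with a limma p of 0.00148 and an adjusted p of 0.157. S100a10 per Anxa2 was accordingly 0.417, 0.542 and 0.483 in controls and 0.374, 0.378 and 0.387 with CXCL3. The ratio was lower in all 3 CXCL3 libraries than in any control, and this was not tested.

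The divergent pair S100a1 and S100a13 kept a similar ratio of levels, with overlapping groups. S100a1, best known from heart muscle as a regulator of calcium cycling, stood at 232, 282 and 279.8 TPM (controls) against 240.2, 259 and 255 TPM (CXCL3) (log2 fold change -0.07, 95% interval -0.28 to 0.14). S100a13, which takes part in the non-classical release of FGF1 and IL-1 alpha, stood at 45.05, 64.6 and 47.8 TPM (controls) against 49.95, 49.05 and 54.25 TPM (CXCL3) (-0.02, -0.34 to 0.30). S100a1 was 4.37 to 5.86 times S100a13 in controls and 4.70 to 5.28 times with CXCL3. The limma adjusted p was 0.711 for S100a1 and 0.942 for S100a13.

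S100a16, a widely expressed member, stood at 51.6, 70.2 and 59.8 TPM (controls) against 54.9, 52.2 and 53.9 TPM (CXCL3) (log2 fold change -0.16, 95% interval -0.43 to 0.11; limma, adjusted p = 0.523). S100a3, a cysteine-rich member known from hair cuticle, was at 0.26, 0.71 and 0.52 TPM (controls) against 1.28, 0.86 and 0.72 TPM (CXCL3). The nearest S100a3 values of the groups were 0.71 and 0.72 TPM, and only CXCL3 library 1 was above 1 TPM.

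The spread of the members was wider among controls. The coefficient of variation of the 8 tested genes ranged from 8.99% to 20.2% among controls and from 1.43% to 5.44% among CXCL3 libraries. All 8 were above their own mean over 6 libraries in control 2 and 0 of 8 were in control 1. The median deviation was -0.14 in control 1, 0.19 in control 2 and 0.01 in control 3 on the log2 scale, whereas the CXCL3 libraries had -0.05, -0.05 and 0.01.

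This division moved with transcript length. Of the 8 tested members, 7 have a longest annotated transcript under 1000 bases, from 498 bases in S100a4 and S100a8 to 783 in S100a6, and S100a16 has 1127. Over the 1025 genes tested with transcripts that short, the median deviation was -0.08 in control 1, 0.17 in control 2 and 0.10 in control 3, whereas the CXCL3 libraries had -0.06, -0.05 and -0.02. Their median log2 fold change was -0.11 and 34.2% were positive. Over the 4630 genes with 4000 bases or more, it was 0.19 and 82.5% were positive. S100a4 thus had a positive fold change in a length class where most were negative. After removal, library by library, of the dependence on transcript length and GC content, the log2 fold change of S100a4 was 0.42 (limma, adjusted p = 0.078), that of S100a6 0.17 (0.353) and that of S100a11 -0.11 (0.347). On that log2 scale S100a4 lay at 9.12 to 9.33 for the controls against 9.57 to 9.72 under CXCL3. S100a6, whose deposited groups overlapped, lay at 10.61 to 10.90 against 10.92 to 10.95, a narrow gap with no overlap. S100a11 did not overlap either and was lower with CXCL3, at 11.22 to 11.26 for the controls against 11.09 to 11.18. The share of all genes without overlap was not computed on that scale, so the lack of overlap in these members cannot be set against it. In that fit 0 of 8 members passed, where 0.327% of all genes did. An unadjusted limma p under 0.05 was found for 1 of 8 members and for 2034 of all 13139 genes.

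**Figure D2:**
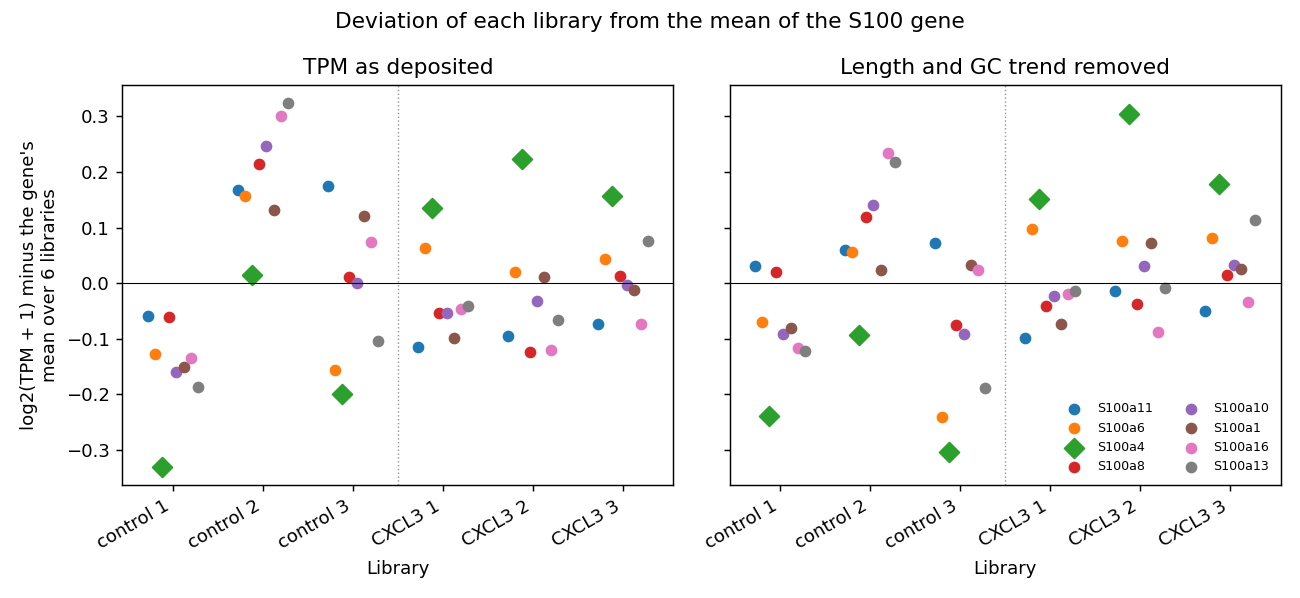
Deviation of each library from the gene's mean over 6 libraries, in log2(TPM + 1), for the 8 tested S100 genes, as deposited (left) and after removal of the dependence on length and GC content (right). In control 1 all 8 genes lie below 0 and in control 2 all 8 above it on the left, and S100a4 (green diamonds) is above 0 in all 3 CXCL3 libraries in both panels.

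The calls of S100a4, S100a11 and S100a16 depended on the libraries and weights used. The fold change of S100a4 was positive in all 22 alternative settings, from 0.26 to 0.50 on the log2 scale, with an adjusted p from 0.0287 to 0.784. It passed without control 1 (0.26, limma, adjusted p = 0.0336), where 32.4% of all genes did. It also passed with library weights (0.31, 0.0397), where 11% of all genes passed, and with the length and GC trend removed together with library weights (0.46, 0.0297), where 3.58% did. Without controls 2 and 3 the control group is control 1 alone, and the spread comes only from the 3 CXCL3 libraries, in which S100a4 varied less (coefficient of variation 3.15%, against 12.2% among controls). That fit, which assumes that the lone control varies like the CXCL3 libraries, gave 0.50 (adjusted p = 0.0287), where 0.639% of all genes passed. With median-of-ratios scaling it was 0.26 (0.418), where 0.0381% of all genes passed. In the other settings no member passed either, where the share of all genes that did was 0.122% and 0.152% with pseudocounts of 0.1 and 5 TPM, 0.211% with a filter of 5 TPM, 0.129% with quantile normalization and 0.00761% with eBayes without trend. It was 0.0913% with the replicate number as a block, 0.00761% with block and trend removal, 0.0761% without control 2 and 0.00761% without CXCL3 library 3. With mitochondrially encoded genes removed it was 0.107%, with protein-coding genes alone 0.175% and with robust eBayes estimation 0.175%. S100a11 had a negative fold change in all 22 settings (-0.27 to -0.04) and passed with library weights (-0.24, limma, adjusted p = 0.0389) and without control 1 (-0.27, 0.00742). Without controls 2 and 3 it was -0.04 (0.577). S100a16 passed without control 1 only among the 22 (-0.27, 0.0449), and was 0.06 without controls 2 and 3 (0.691). The signs of groups that do not overlap cannot change when a library is left out.

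**Figure D3:**
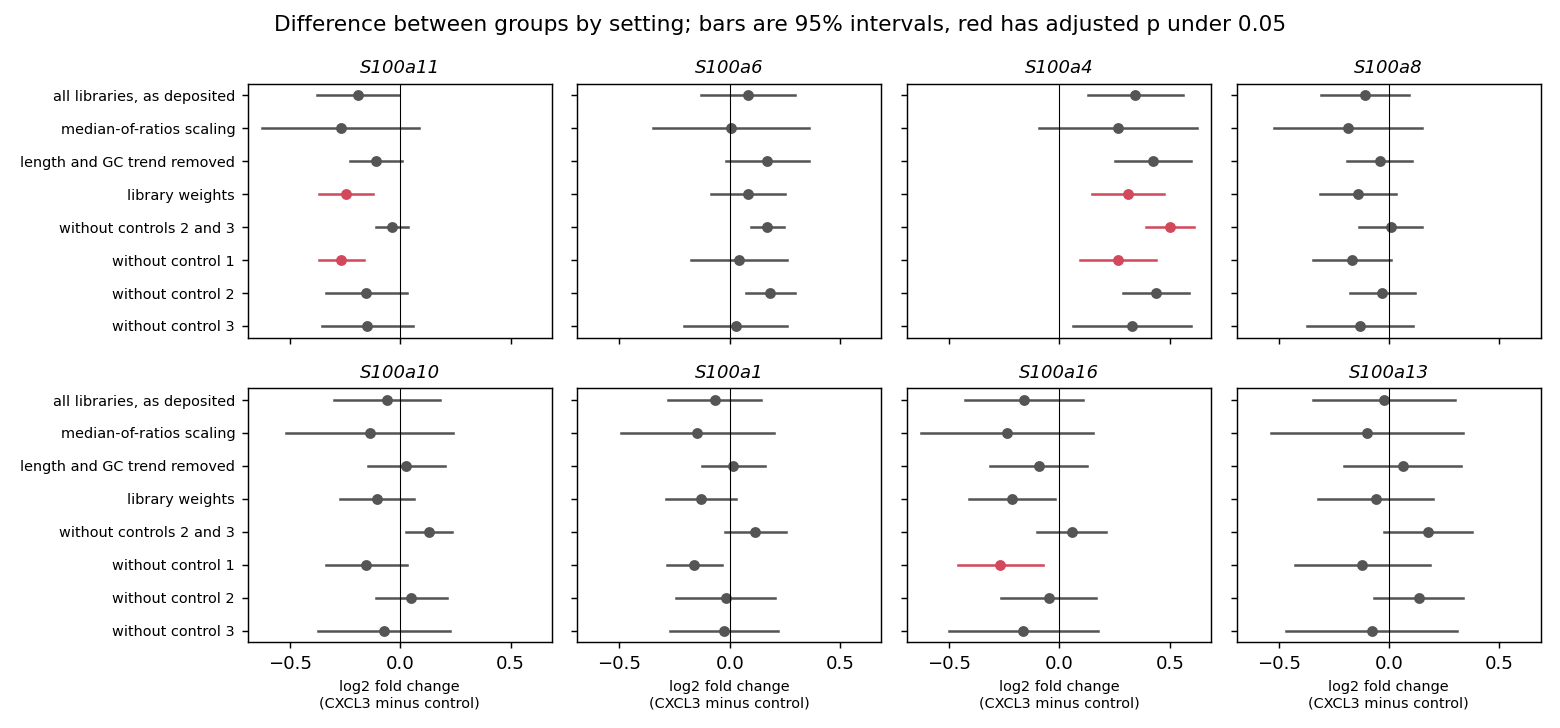
The log2 fold change (CXCL3 minus control) of the 8 tested S100 genes in 8 settings, with 95% intervals. Points right of 0 are higher with CXCL3, and red marks an adjusted p under 0.05, which S100a4 reached in 3 of the settings drawn, S100a11 in 2 and S100a16 in 1. The fit without controls 2 and 3 has 1 control library.

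Reads of S100a4 and S100a11 can be shared with other annotated genes. Of the 31-base stretches in the longest S100a4 transcript, 58.1% also occur in Gm42674, an overlapping gene on the same strand that was listed at 0 TPM in every library. For S100a11, 48.9% occur in 6 other genes, mostly in Gm12854, and these genes reached 2.65 TPM at most in a library. S100a11-ps was listed at 0 throughout. How RSEM divided such reads is uncertain. S100a3 overlaps S100a2 and Gm42674 on its own strand, both at 0 TPM. S100a10 shared 0.763% of its stretches and S100a1, S100a6, S100a13 and S100a16 shared none.

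The genes most like S100a4 and S100a11 over the 6 libraries were ranked by Pearson's r of log2(TPM + 1) among 9452 protein-coding genes. Those nearest to S100a4 were the acyl-CoA thioesterase gene Acot7 (r = 0.992; 89.5 and 100.3 TPM in controls and with CXCL3), the IGF-binding protein gene Igfbp6 (0.990; 42.3 and 54.5 TPM) and the fatty acid-binding protein gene Fabp5 (0.974; 288 and 331 TPM). An r over 0.9 was reached by 45 genes for S100a4 and by 445 for S100a11. Nearest to S100a11 were the prenylated Rab acceptor gene Rabac1, the respiratory chain subunit gene Cox8a and Trim24, with an r of 0.999, 0.999 and 0.998. Trim24 was at 14.4, 109.5 and 110.8 TPM (controls 1, 2 and 3) against 7.45, 9.36 and 14.02 TPM (CXCL3 libraries 1, 2 and 3), so it shared the division between control 1 and controls 2 and 3. For S100a4 and its 3 nearest genes, control 3 instead lay nearer to control 1 than to control 2. With only 6 libraries, these correlations describe the libraries.

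S100 proteins act through receptors and partners, of which 29 were listed and 24 tested. None passed (limma), 15 fold changes were positive and 9 negative, and the median was 0.08 on the log2 scale, beside 0.07 for all genes. An unadjusted p under 0.05 was found for 3 higher and 4 lower genes, where 11.6% of all genes had one in either direction. The groups did not overlap for 7 (3 higher and 4 lower), where 17.2% of all genes did not overlap. The receptor gene Ager, which encodes RAGE, was under 1 TPM in every library (0.27 to 0.85) and was not tested. Tlr4 was at 13.4, 7.84 and 10.1 TPM (controls) against 13.7, 13.6 and 12.4 TPM (CXCL3), and control 1 lay within the CXCL3 range. Ly96, which encodes the TLR4 co-receptor MD-2 and was named after its values were seen, went from 29.8 to 19.7 TPM on average (log2 fold change -0.57, adjusted p = 0.246), with no overlap. Bsg, which encodes basigin, a receptor reported for S100A9, was at 1103, 1182 and 1126 TPM (controls) against 941, 988 and 959 TPM (CXCL3). The Bsg groups did not overlap either (-0.24, limma, adjusted p = 0.245). Cd36, a fatty acid receptor, went from 179.96 to 221 TPM (0.30, adjusted p = 0.282).

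Annexins, the partners best described for S100 dimers, had fold changes of both signs, and none passed. Anxa1, partner of S100a11, had means of 432 and 464 TPM (log2 fold change 0.10, limma, adjusted p = 0.472), and its groups did not overlap. Anxa5 had means of 485 and 394 TPM (-0.29, adjusted p = 0.302), lower in all 3 CXCL3 libraries than in any control. Anxa11, partner of S100a6, had means of 33.0 and 37.3 TPM (0.19, adjusted p = 0.537) with overlapping groups.

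Among intracellular targets, Myh9, the myosin heavy chain bound by S100a4, was at 497, 287 and 217 TPM in controls 1, 2 and 3 and 457, 445 and 392 TPM with CXCL3 (log2 fold change 0.45, 95% interval -0.17 to 1.07; limma, adjusted p = 0.481). Control 1 was the highest of the Myh9 values and controls 2 and 3 the lowest, and its transcript is long, at 7433 bases. Ahnak, the giant scaffold of the S100a10 and annexin A2 complex, showed the same order, with 33.0, 20.6 and 17.5 TPM in controls and 28.5, 28.1 and 25.4 TPM with CXCL3. Cacybp had means of 61.5 and 58.5 TPM (-0.07, limma, adjusted p = 0.702). Cyba, a subunit of the NADPH oxidase that S100a8 and S100a9 can support, had means of 440.3 and 371 TPM (-0.23, adjusted p = 0.437). Of the cargo of S100a13, Il1a was at 457, 366 and 429 TPM (controls) against 446, 453 and 444 TPM (CXCL3), and Fgf1 at 2.35, 0.59 and 0.71 TPM and at 1.98, 0.93 and 2.87 TPM. Neither passed (limma, adjusted p = 0.562 and 0.565). The 3 calmodulin genes, the ubiquitous EF-hand sensors, had positive fold changes and did not pass (limma, adjusted p from 0.42 to 0.867).

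**Figure D4:**
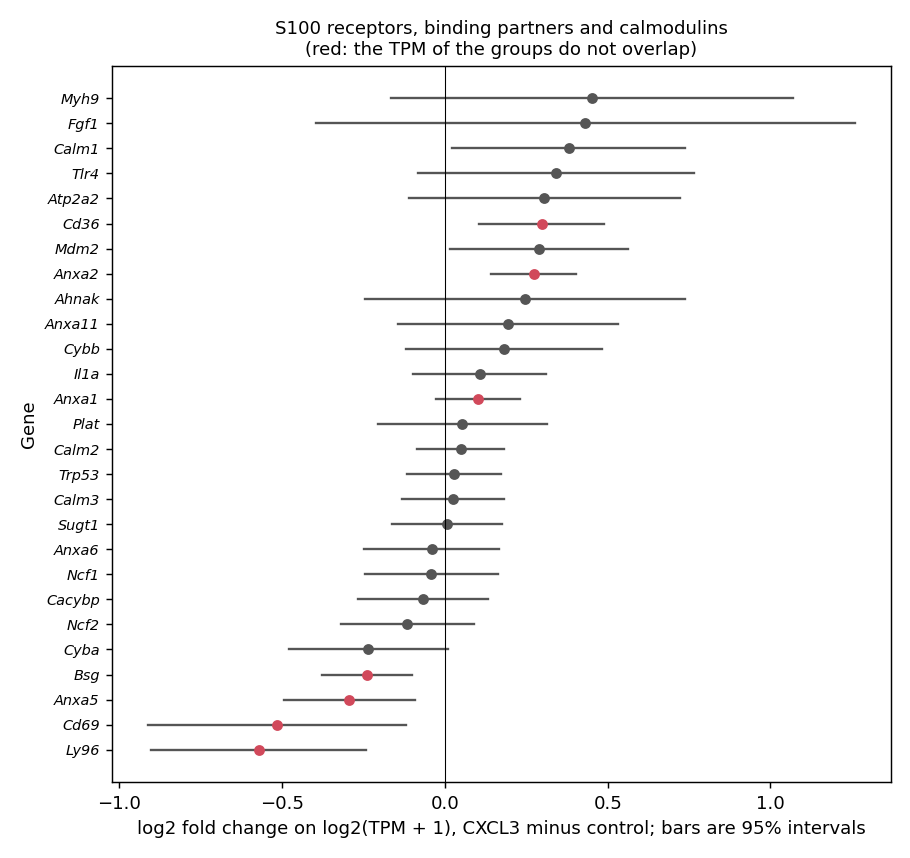
The log2 fold change (CXCL3 minus control) of the 24 S100 receptors and partners tested and of 3 calmodulin genes, with 95% intervals. Red points mark the 7 genes whose groups did not overlap, and Anxa2 is the one with the smallest p (0.00148).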

How the data were processed

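The TPM values were deposited by the authors as 1 table, which has a column for each library and 0 for samples outside the series. The tools used were fastp, HISAT and RSEM, without versions, and the build was GRCm38.p5, per the submitters' processing notes. Neither annotation, filters nor strand setting is given in the sources used here. RNA came from TRIzol and DNase I steps, per the labels' protocols. TPM keeps no depth, so no counting interval or floor is given, and precision rests on 3 libraries per group.

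Groups and replicate numbers came from the labels. Symbols, positions and properties of each longest transcript (length, GC) were taken from GENCODE M21, which named 51719 of 51912 genes. Genes with at least 1 TPM in at least 3 libraries were kept (13139), and log2(TPM + 1) was fitted with limma 3.58.1 in R 4.3.3 (lmFit, eBayes with trend), two-sided, with adjustment over all genes kept. For low genes this scale understates a log2 fold change. The fit was tested on simulated data. Length and GC trends were removed per library by loess (span 0.5) over the 13114 kept genes with a length.

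The members and lists were chosen with earlier results of these data known. Named are all members, the other family genes, the 8 partners with the highest mean TPM, 11 partners fixed by name, and the 3 protein-coding genes (mean of at least 5 TPM) nearest by Pearson's r to the most abundant member and to the member with the smallest p. Other names were chosen after their values were seen. Alternatives were other pseudocounts, filters, scalings and eBayes options, library weights, the replicate block, trend removal and leaving out libraries.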

Additional observations from a re-analysis of the deposited data

How the results depend on the processing

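Over all genes, 21 passed (limma, 4 higher and 17 lower). The count was 0 with no filter on low values (1928 at an unadjusted p under 0.05), 5 with median-of-ratios scaling (0 higher, 5 lower), 1 with eBayes without trend, 1446 with library weights (1046 higher, 400 lower), 43 with the length and GC trend removed (13 higher, 30 lower), 471 with that and library weights (190 higher, 281 lower) and 84 with both controls 2 and 3 left out (32 higher, 52 lower). Leaving out 1 library gave 0 to 4254 genes, the highest without control 1 (3312 higher, 942 lower). Of the S100 members 0 passed, 2 with library weights, 1 with trend removal and library weights, 1 with both controls 2 and 3 left out, a fit with a single control library whose spread comes from the CXCL3 libraries alone, and 0 to 3 with 1 library left out, the 3 being S100a4, S100a11 and S100a16 without control 1.

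The fit with the replicate number as a block gave 12 genes and 0 members, and 1 gene and 0 members with trend removal as well. Deviations of same-numbered libraries had correlations across genes of 0.122, -0.0112 and 0.0775, and those of differently numbered libraries ran from -0.174 to 0.134. Deviations from the mean of 3 libraries are bound to each other, so these values cannot decide whether the libraries were paired.

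Some members changed sign in other settings, with no call there. They included S100a16, at -0.16 with all libraries as deposited, which passed as lower without control 1. With the trend removed, and likewise with the block added, the log2 fold change of S100a1 was 0.0163, of S100a10 0.0282 and of S100a13 0.0620. With library weights as well it was 0.0493 for S100a10 and 0.11 for S100a13. With both controls 2 and 3 left out it was 0.12 for S100a1, 0.13 for S100a10, 0.18 for S100a13, 0.0553 for S100a16 and 0.00697 for S100a8. Leaving out 1 library gave -0.15 to 0.0501 for S100a10 and -0.12 to 0.14 for S100a13. The cause was not tested. S100a6 ranged from 0.0056 (median-of-ratios scaling) to 0.23 (trend removal with library weights) over 22 settings, with no call. The log2 difference of the summed S100 TPM was -0.03, 0.0542 with the trend removed and -0.10 to 0.0433 with 1 library left out. That of S100a10 per Anxa2 was -0.33, and -0.25 with the trend removed. A ratio of S100a8 to S100a9 was not computed, since S100a9 was listed at 0 in controls 2 and 3.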
